A study of Mus musculus with 6 samples.

Results

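The phase II conjugation enzymes of liver are described here by the genes of 4 superfamilies: the cytosolic glutathione S-transferases (GST), the membrane-bound glutathione transferases (MGST), the UDP-glucuronosyltransferases (UGT) and the cytosolic sulfotransferases (SULT). Genes were selected on their symbol, which had to begin with the name of one of these families, and on a mean over all 6 mice of at least 1 TPM (a transcript abundance that is corrected for transcript length and scaled to the same total in each mouse). This gave 50 genes of the 71 symbols that match the families, out of 35540 gene symbols in the table. Members comprised 20 of 24 GST, 2 of 3 MGST, 14 of 19 UGT and 14 of 25 SULT symbols, pseudogenes included. Among the members, only *Sult2a-ps2* is annotated as a pseudogene. Of the 21 symbols below the minimum, 7 were listed at 0 in every mouse. The pseudogenes *Sult1c2-ps1*, *Sult1c2-ps2*, *Sult2a-ps3* and *Sult2a-ps4* are among these 7.

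The data are RNA sequencing of whole liver from 6 *Surf4* fl/fl mice on a C57BL/6J background, which all carried the floxed allele on both chromosomes. Of these, 3 carried the Cre transgene (Alb-Cre+) and 3 were littermates without it (Alb-Cre-). The Cre transgene was driven by the *Albumin* promoter, which directs excision of *Surf4* exon 2 to hepatocytes and leaves the other cells of the liver with an intact gene. Each genotype had 2 males, numbered 1 and 3, and 1 female, numbered 2. Mice were fasted overnight before tissue collection, per the published methods. All mice were fed standard chow (5L0D), and their age is not given in the sources used here. The question put to these data was whether liver mRNA differed after loss of SURF4, a cargo receptor for secreted proteins in the endoplasmic reticulum. *Surf4* itself stood between 92.5 and 94.5 TPM in the Alb-Cre- livers and between 54.3 and 71.8 TPM in the Alb-Cre+ livers, with no overlap.

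Phase II enzymes attach a polar group to drugs, hormones, bile acids, bilirubin and other lipid-soluble compounds, which makes these easier to excrete in bile or urine. GST enzymes add glutathione to electrophiles, UGT enzymes add glucuronic acid from UDP-glucuronic acid in the lumen of the endoplasmic reticulum, and SULT enzymes add sulfate from PAPS in the cytosol. The liver is the main site of these reactions, and several sulfotransferase and glucuronosyltransferase genes of mouse liver are known to depend on the sex-specific pattern of growth hormone.

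Many members lie next to their closest relatives in the genome (GRCm38, GENCODE M21 annotation). All 7 SULT2 members lay on chromosome 7 between positions 13623967 and 14494230, all 7 mu-class GST members on chromosome 3 between 107895821 and 108044894, and all 7 UGT2B members on chromosome 5 between 86889767 and 87424203. The 6 UGT1A members shared 1 locus on chromosome 1 between 88055388 and 88219004, where alternative first exons are spliced to common exons. The 3 theta-class members were on chromosome 10 between 75774115 and 75837424, and the 3 pi-class members on chromosome 19 between 4035407 and 4059569. Reads of such genes cannot always be assigned to one of them. In 14 of the 50 members, more than 50% of all 31-base stretches of their transcripts also occurred in another gene, whereas 26 members shared less than 10%. The share was 92.9% for *Gsta1*, 74.5% for *Sult2a2*, 55.6% for *Sult2a1* and 52.9% for *Ugt2b38*, so the split of reads between each of these genes and its relatives is uncertain.

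The 250 bases upstream of the annotated start are shown for 4 members whose levels separated the sexes (RefSeq, GRCm38.p6). They are 2 sulfotransferase genes that were higher in females and 2 glucuronosyltransferase genes that were higher in males. They were picked by no set rule from the 12 members past the threshold for sex. *Sult2a5* and *Sult3a1* reached the minimum of 1 TPM through the females alone and *Ugt2b38* through the males alone, so their separation was part of the selection. Capitals mark matches on either strand to TTCNNNGAA, the motif of STAT5, to GTTAAT, a partial site of the hepatocyte factor HNF1, to TATAAA, the TATA box, and to TGACNNNGC, the core of the antioxidant response element. *Sult2a5* lies on the plus strand and its window is chr7:13623717-13623966. *Sult3a1* is also on the plus strand, at chr10:33857472-33857721. *Ugt2a3* lies on the minus strand at chr5:87337196-87337445, and *Ugt2b38* on the minus strand at chr5:87424204-87424453.
Sult2a5: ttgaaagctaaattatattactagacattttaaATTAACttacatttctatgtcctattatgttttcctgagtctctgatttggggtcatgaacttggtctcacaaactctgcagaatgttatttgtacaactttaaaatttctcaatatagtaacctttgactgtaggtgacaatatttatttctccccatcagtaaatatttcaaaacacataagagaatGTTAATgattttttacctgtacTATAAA
Sult3a1: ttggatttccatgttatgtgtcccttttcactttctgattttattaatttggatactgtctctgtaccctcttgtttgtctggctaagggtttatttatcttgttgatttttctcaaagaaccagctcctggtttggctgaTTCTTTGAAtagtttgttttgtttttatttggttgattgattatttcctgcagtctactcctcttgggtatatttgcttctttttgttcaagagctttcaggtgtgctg
Ugt2a3: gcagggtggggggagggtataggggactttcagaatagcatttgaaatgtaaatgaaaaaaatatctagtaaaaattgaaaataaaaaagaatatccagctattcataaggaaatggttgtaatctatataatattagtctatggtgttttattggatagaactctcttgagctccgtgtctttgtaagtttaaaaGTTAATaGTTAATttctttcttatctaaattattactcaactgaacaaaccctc
Ugt2b38: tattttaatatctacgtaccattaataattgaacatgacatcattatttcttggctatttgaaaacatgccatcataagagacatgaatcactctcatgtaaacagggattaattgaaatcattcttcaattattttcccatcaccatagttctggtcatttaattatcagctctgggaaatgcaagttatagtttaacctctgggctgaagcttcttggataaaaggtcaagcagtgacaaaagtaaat
*Sult2a5* held 2 HNF1 partial sites and a TATA box, *Ugt2a3* held 2 HNF1 partial sites, *Sult3a1* held 1 STAT5 motif, and *Ugt2b38* held none of the 4 motifs. Such a window was on hand for 43 of the 50 members. The HNF1 partial site was found in 10 of these 43 and in 6.43% of all 32851 promoters of this length. The STAT5 motif was found in 4 members and in 7.02% of all promoters, the TATA box in 5 and in 12.4%, and the antioxidant response element core in 4 and in 10.2%. The member counts are of genes with a match in any of their promoters, whereas the percentages are of single promoters, so the units differ. No matches overlapped in the 4 windows shown, and a match does not show that a factor binds.

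The members covered a wide range of levels. Summed over the 50 members, the 4 superfamilies took 1.29% of all TPM, and the sum per mouse ranged from 10907 to 15489 TPM. *Mgst1*, a membrane-bound enzyme of the endoplasmic reticulum and mitochondria that conjugates glutathione and reduces lipid peroxides, was highest with a mean of 3738 TPM and ranked 48th of all gene symbols. It stood at 4194, 3532 and 4192 TPM in Alb-Cre- replicates 1, 2 and 3 and at 3650, 3020 and 3842 TPM in Alb-Cre+ replicates 1, 2 and 3. *Gstp1*, the main pi-class transferase, followed with a mean of 2439 TPM. *Gstm1* (715 TPM, mu class), *Gstz1* (624 TPM, the zeta-class enzyme that acts as maleylacetoacetate isomerase in tyrosine breakdown) and *Gsta3* (564 TPM, alpha class) were the next transferases in order. *Ugt2b5* (558 TPM) and *Ugt1a1* (464 TPM, the enzyme that conjugates bilirubin) led the glucuronosyltransferases, and *Sult1a1* (463 TPM), which sulfates phenols, had the highest mean of the sulfotransferases over the 6 mice. These means weight males 4 to 2, and in the females the means of *Sult2a1* (1062 TPM) and *Sult2a2* (484 TPM) were above that of *Sult1a1* (466 TPM). In both males of replicate 3, *Gstp1* was above *Mgst1*. *Ugt2b37*, just inside the minimum, had a mean of 1.07 TPM, and *Sult2a-ps1*, just outside it, had 0.835 TPM.

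**Figure D1:**
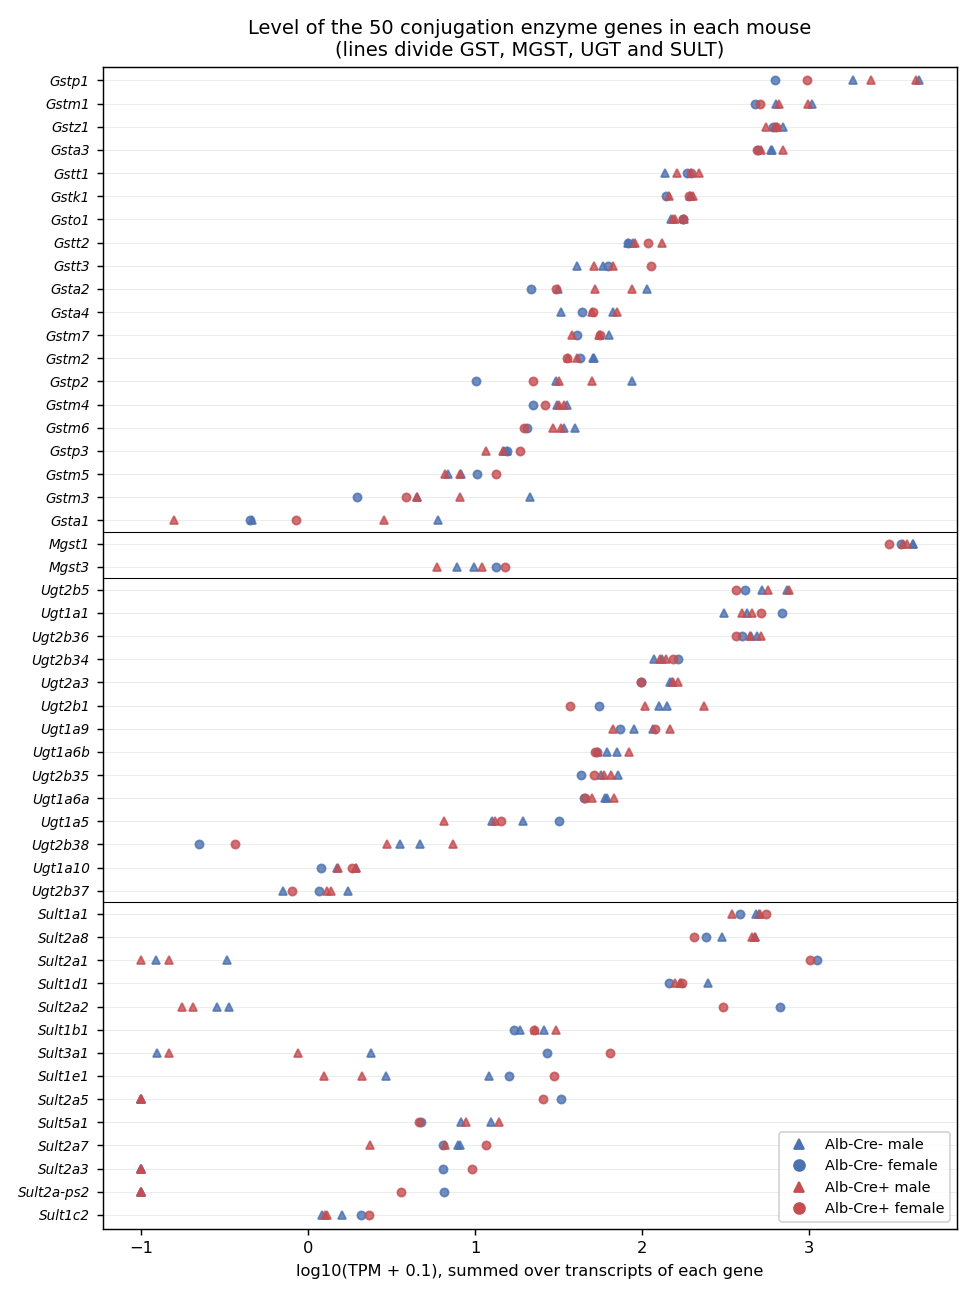
Level of each of the 50 members in each of the 6 mice, as log10(TPM + 0.1) on the horizontal axis, with 1 row per gene ordered by mean within each superfamily. Colours mark genotype and shapes mark sex, and red and blue points lie together in most rows while circles (females) stand far to the right of triangles (males) for *Sult2a1*, *Sult2a2*, *Sult2a3*, *Sult2a5*, *Sult2a-ps2* and *Sult3a1*.

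The first comparison asked which conjugation enzyme genes differed between Alb-Cre+ and Alb-Cre- livers. None of the 50 members passed an adjusted p of 0.05 (limma on log2(TPM + 0.1), Benjamini-Hochberg over the 14189 genes whose mean reached 0.1 TPM, n = 3 against 3), and 0% of all tested genes did, the smallest adjusted p being 0.456. *Surf4*, the deleted gene, was among the tested genes that did not pass, although its levels did not overlap between the genotypes. The study's own count test did call a limited set of genes in these livers, with *Derl3* the most significant of those raised. The absence of calls in the present fit is therefore no evidence that liver mRNA was unchanged. At an unadjusted p under 0.05 there were 2 members, 4% of 50, beside 1.76% of all tested genes. The median difference over the members, Alb-Cre+ minus Alb-Cre-, was 0.00422 on the log2 scale, beside -0.00168 over all tested genes. The fitted difference was above 0 for 26 members and below 0 for 24. It was under 1 on the log2 scale in either direction for all 50 members, and under 0.5 for all but 5. The 95% confidence interval of the difference stayed within 1 on the log2 scale for 31 members and reached beyond it for the other 19, among which are the SULT2A genes that separate the sexes. With the replicate number as a block, it stayed within 1 for 36 members, and the SE fell from 0.79 to 0.16 for *Gstp1* and from 4.53 to 0.40 for *Sult2a1*. In bulk liver, a lower level cannot be told apart from fewer cells of the type that expresses the gene.

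**Figure D2:**
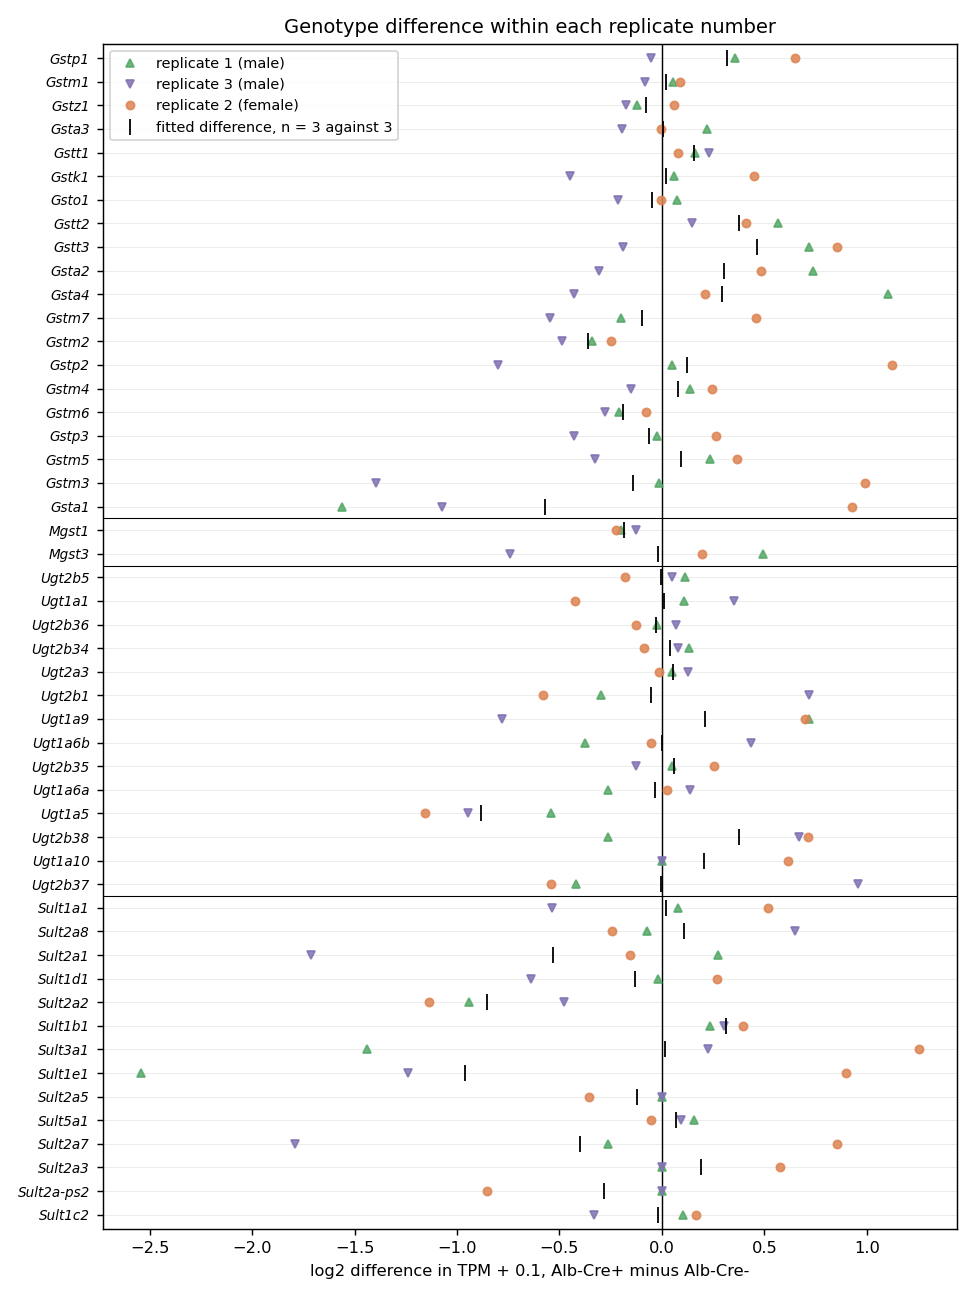
Difference in log2(TPM + 0.1), Alb-Cre+ minus Alb-Cre-, within each replicate number, with 1 row per member, 3 symbols for the 3 replicate numbers and a tick for the fitted difference of 3 against 3 mice. The 3 symbols fall on both sides of 0 in most rows, and all 3 lie on the left for *Gstm2*, *Gstm6*, *Mgst1*, *Sult2a2* and *Ugt1a5* and on the right for *Gstt1*, *Gstt2* and *Sult1b1*.

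Among the glutathione transferases, the genotypes did not overlap for *Gstm2* and *Gstt2*. *Gstm2*, of the mu class, stood at 51.6, 42.1 and 50.3 TPM in Alb-Cre- replicates 1, 2 and 3 and at 40.7, 35.4 and 35.9 TPM in the Alb-Cre+ mice in the same order. All 3 Alb-Cre+ mice were below all 3 controls, with a log2 difference of -0.36 ± 0.13 (SE) and an adjusted p of 0.9999 by limma. *Gstt2*, of the theta class, which handles small halogenated compounds, stood at 88.1, 81.5 and 81.9 TPM in the Alb-Cre- mice and at 131, 109 and 90.7 TPM in the Alb-Cre+ mice. All 3 Alb-Cre+ mice were above the controls, with a log2 difference of 0.38 ± 0.15 and the same adjusted p of 0.9999 by limma. They are the 2 members with an unadjusted p under 0.05. These 2 genes are 1 of 50 members higher and 1 of 50 lower without overlap, beside 2.18% of all tested genes higher and 2.71% lower. For *Gstt2* the gap between the groups is narrow, from 88.1 to 90.7 TPM, and after scaling by median of ratios *Gstm2* overlapped while *Gstt2* did not.

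The other theta-class members, which lie in the same cluster on chromosome 10, also had fitted differences above 0 that did not pass the test. *Gstt3* stood at 40.6, 62.1 and 58.5 TPM in the controls and at 66.9, 112 and 51.2 TPM in the Alb-Cre+ mice. Pairs 1 and 2 were higher and pair 3 was lower, and the log2 difference of 0.46 ± 0.31 went with overlapping ranges. *Gstt1* stood at 196, 185 and 137 TPM in the controls and at 220, 195 and 161 TPM in the Alb-Cre+ mice, higher in each of the 3 same-numbered pairs but with overlapping ranges (log2 difference 0.16 ± 0.18). This difference was 0.000117 without Alb-Cre- replicate 3 and 0.28 without Alb-Cre+ replicate 3, and that of *Gstt3* was 0.15 without Alb-Cre+ replicate 2 and 0.71 without Alb-Cre+ replicate 3. *Gsta4*, the alpha-class enzyme that conjugates the lipid peroxidation product 4-hydroxynonenal, stood at 32.6, 43.5 and 67.1 TPM in the controls and at 70.0, 50.3 and 49.8 TPM in the Alb-Cre+ mice, with a log2 difference of 0.29 ± 0.28 that was 0.05 without Alb-Cre- replicate 1, 0.13 without Alb-Cre+ replicate 1 and 0.57 without Alb-Cre- replicate 3. *Mgst1* was lower in each of the 3 pairs, with a log2 difference of -0.18 ± 0.19 that was -0.08 without Alb-Cre+ replicate 2, and its ranges overlapped.

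Among the glucuronosyltransferases, *Ugt1a5* had the difference furthest from 0. It stood at 19.1, 31.6 and 12.4 TPM in the controls and at 13.1, 14.1 and 6.41 TPM in the Alb-Cre+ mice. It was lower in all 3 pairs while the ranges of the groups overlapped, with a log2 difference of -0.88 ± 0.41 that was -0.52 without Alb-Cre+ replicate 3 and -0.54 without Alb-Cre- replicate 2. Its transcripts share 65.3% of their 31-base stretches with other genes, chiefly the common exons of the UGT1A locus. *Ugt1a1* overlapped fully between genotypes, at 423, 689 and 309 TPM in the controls and 456, 513 and 394 TPM in the Alb-Cre+ mice. Over the 6 UGT1A members the median log2 difference was 0.01, and over the 7 UGT2B members it was -0.00328, with a range of -0.05 to 0.38.

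Among the sulfotransferases, none of the 14 members passed the test. *Sult1b1*, which sulfates thyroid hormones, stood at 25.7, 16.9 and 18.4 TPM in the controls and at 30.2, 22.2 and 22.8 TPM in the Alb-Cre+ mice. It was higher in all 3 pairs, with a log2 difference of 0.31 ± 0.21, which was 0.17 without Alb-Cre+ replicate 1 and 0.49 without Alb-Cre- replicate 1, and overlapping ranges. *Sult1e1*, the estrogen sulfotransferase, stood at 12.0, 15.8 and 2.84 TPM in the controls and at 1.99, 29.5 and 1.14 TPM in the Alb-Cre+ mice. Both male pairs were lower and the female pair was higher, and the log2 difference of -0.96 ± 1.22 was smaller than its error. It was -0.07 without Alb-Cre+ replicate 3, -2.36 without Alb-Cre+ replicate 2 and -1.89 in the males alone. *Sult2a7* stood at 7.81, 6.30 and 7.95 TPM in the controls and at 6.49, 11.5 and 2.23 TPM in the Alb-Cre+ mice. Its log2 difference of -0.40 ± 0.54 rested on Alb-Cre+ replicate 3, without which it was 0.24.

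Same-numbered mice resembled each other, and the comparison was therefore also made with the replicate number as a block. No member passed an adjusted p of 0.05 with the block either, the smallest adjusted p of a member being 0.454, while 5 members had an unadjusted p under 0.05, 10% of 50, beside 4.69% of all tested genes. These were *Ugt1a5*, which had the smallest, *Sult2a2*, *Gstm2*, *Gstt2* and *Sult1b1*, of which *Sult2a2* was named under the rule for sex and not under that for genotype. *Sult2a2* was lower in all 3 Alb-Cre+ mice than in the control with the same number, but only the female pair had a level above 1 TPM.

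The genotype difference was then compared between the sexes. None of the 50 members and 0% of all tested genes passed an adjusted p of 0.05 for the difference between the male and the female genotype effect (limma, smallest adjusted p over all genes 0.301), and none of the 50 had an unadjusted p under 0.05, beside 862 of the 14189 tested genes. The female effect rested on 1 mouse per genotype, so this comparison has little precision.

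More members passed the threshold for sex than for genotype, as was so over all tested genes, 1019 against 0. The main genotype fit had no term for sex. With such a term, 0 members and 0 of all tested genes passed for genotype. The sex comparison set 4 males against 2 females with genotype in the fit, and both females were replicate 2, so sex cannot be told apart from whatever else the replicate 2 mice share. An adjusted p of 0.05 was passed by 12 of the 50 members, 24%, beside 7.18% of all tested genes. In 6 of them the level was higher in males, 12% beside 0.86% of all tested genes, and in 6 it was higher in females, 12% beside 6.32%. These counts are in part a product of the selection. Of the 50 members, 9 reached the mean of 1 TPM only through one sex, 6 through the females and 3 through the males, and 7 of the 12 genes are among these 9. Such genes had to differ between the sexes to be members. Of the other 41 members, 5 passed, which is 12.2%, beside 8.27% in a fit restricted to genes with a mean of 1 TPM or more. The latter share comes from another fit and keeps genes that reached the mean through one sex only. The percentages are therefore not of like sets.

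The scale of the comparison matters for its direction. On TPM the median sex difference, male minus female, was -0.26 over all tested genes and 0.18 over the members, whereas after scaling by median of ratios it was 0.01 over all tested genes and 0.47 over the members. The share of all called genes that were higher in males was 12% on TPM and 45.1% after that scaling. With the median of ratios, 15 members passed, 9 higher in males beside 3.18% of all tested genes and 6 higher in females beside 3.88%, and the sign of the difference changed for 4 members that did not pass on TPM (*Sult1a1*, *Gstt1*, *Gsto1* and *Gstp3*).

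**Figure D3:**
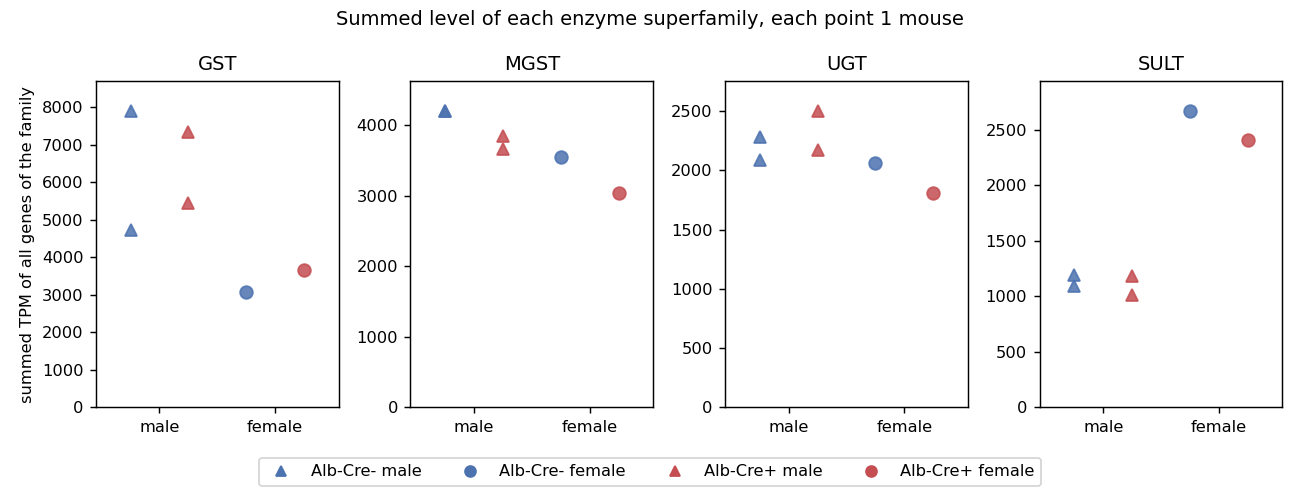
Summed TPM of the members of each superfamily in each mouse, 1 point per mouse, with males on the left and females on the right of each panel. The 2 females have the lowest GST, MGST and UGT sums and the highest SULT sums, and the SULT sums are 2403 and 2670 TPM in females against 1012 to 1190 TPM in males. The SULT sums include 6 genes that are members only through the females. Among these, *Sult2a1* stood at 1119 and 1005 TPM and *Sult2a2* at 666 and 303 TPM in the Alb-Cre- and the Alb-Cre+ female. The higher SULT sums in females are therefore no independent support for a sex difference of the superfamily.

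Of the genes of the 2A and 3A sulfotransferase families, 6 were members only because of their level in the females. This level had to exceed that in the males for them to be selected. The pseudogene *Sult2a-ps2* is among these 6. Their values are a description, and the p-values beside them are no independent support. *Sult2a1*, a hydroxysteroid sulfotransferase that acts on bile acids and on dehydroepiandrosterone, stood at 1119 and 1005 TPM in the Alb-Cre- and the Alb-Cre+ female. In the 4 males it ranged from 0 to 0.228 TPM. *Sult2a2*, its close relative, stood at 666 and 303 TPM in the females and from 0.0739 to 0.234 TPM in the males. The difference, male minus female, was -12.7 ± 0.42 (SE) for *Sult2a1* and -10.9 ± 0.21 for *Sult2a2* on the log2(TPM + 0.1) scale, with adjusted p = 7.72e-05 and 7.88e-06 by limma, and with a pseudocount of 1 TPM it was -9.95 and -8.62. *Sult2a5* was listed at 32.7 and 25.5 TPM in the females, *Sult2a3* at 6.28 and 9.42 TPM and *Sult2a-ps2* at 6.40 and 3.50 TPM, and all 3 were listed at 0 in each of the 4 males. No fold is given for these 3 genes, which passed with adjusted p = 6.68e-05, 0.00047 and 0.00113 by limma. *Sult3a1* stood at 26.8 and 63.9 TPM in the females and at 2.27, 0.0246, 0.773 and 0.0455 TPM in Alb-Cre- replicates 1 and 3 and Alb-Cre+ replicates 1 and 3 (log2 difference -6.56 ± 1.26, adjusted p = 0.0342 by limma, and -4.75 with a pseudocount of 1 TPM). All 6 of these genes entered through the females alone.

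Other sulfotransferase genes had other patterns, among them *Sult2a8* and *Sult2a7* within the 870 kb of the SULT2 cluster. *Sult2a8*, which sulfates bile acids in mouse liver, was lower in both females (240 and 203 TPM) than in the 4 males (301 to 476 TPM), with a log2 difference of 0.92 ± 0.21 and an adjusted p of 0.0526 by limma that missed the threshold. *Sult2a7* overlapped between the sexes. *Sult1e1*, on chromosome 5, was higher in both females, at 15.8 and 29.5 TPM, than in the males, at 1.14 to 12.0 TPM. It did not pass (adjusted p = 0.0759 by limma). *Sult2a8* was named after its values were seen. In the other direction, *Sult5a1*, on chromosome 8, stood at 4.66 and 4.49 TPM in the females and at 8.11 to 13.8 TPM in the males (log2 difference 1.18 ± 0.25, adjusted p = 0.046 by limma).

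**Figure D4:**
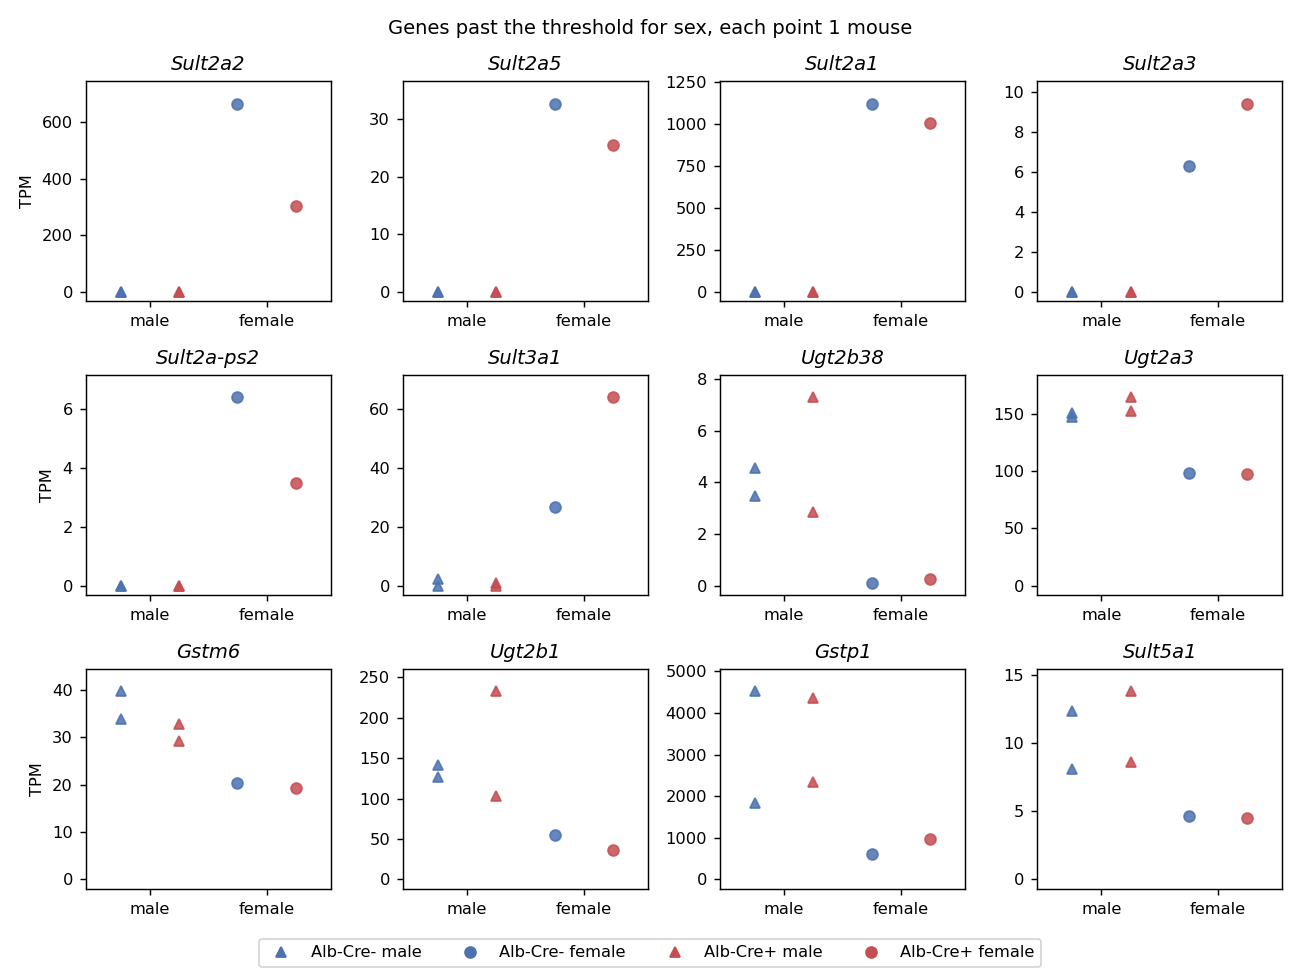
TPM of the 12 members past the threshold for sex, 1 panel per gene and 1 point per mouse, with males on the left and females on the right. The first 6 panels show genes with at most 2.27 TPM in any male, and the other 6 show genes whose 4 male values all lie above both female values.

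Among the glucuronosyltransferases, 3 members passed the threshold for sex, all of them higher in males. *Ugt2b38* stood at 3.45 and 4.54 TPM in the Alb-Cre- males, at 2.87 and 7.29 TPM in the Alb-Cre+ males and at 0.122 and 0.264 TPM in the females, a log2 difference of 3.94 ± 0.40 (adjusted p = 0.00784 by limma) that was 2.16 with a pseudocount of 1 TPM. It was the only one of these 3 to enter through one sex, the males, so its p-value is no independent support. *Ugt2b1* stood at 127 and 141 TPM in the Alb-Cre- males, at 103 and 233 TPM in the Alb-Cre+ males and at 55 and 36.7 TPM in the females, a log2 difference of 1.68 ± 0.34 (adjusted p = 0.038). *Ugt2a3* had the tightest values of the 3, at 147 to 164 TPM in the males and 98.7 and 97.8 TPM in the females, a log2 difference of 0.64 ± 0.10 (adjusted p = 0.0206). Of the 7 UGT2B members 6 had a fitted difference above 0 and *Ugt2b34* had one below 0, from -0.30 to 3.94. *Ugt1a1* was lower in the 4 males (309 to 456 TPM) than in the females (689 and 513 TPM) and did not pass, with a log2 difference of -0.60 ± 0.20 and an adjusted p of 0.116 by limma.

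Among the glutathione transferases, only *Gstp1* and *Gstm6* passed the threshold for sex, and both were higher in males. *Gstp1* stood at 1825 and 4519 TPM in Alb-Cre- replicates 1 and 3, at 2339 and 4355 TPM in Alb-Cre+ replicates 1 and 3, and at 623 and 976 TPM in the females. Every male was above both females, and the log2 difference was 1.96 ± 0.41 (adjusted p = 0.0422 by limma). In both genotypes the male of replicate 3 was above the male of replicate 1. *Gstp2*, the neighbour that shares 54.8% of its 31-base stretches with *Gstp1*, was also lowest in the females (10.1 and 22.0 TPM against 30.4 to 86.9 TPM) but did not pass. *Gstm6* stood at 33.8 and 39.7 TPM in the Alb-Cre- males, at 29.1 and 32.7 TPM in the Alb-Cre+ males and at 20.4 and 19.4 TPM in the females, a log2 difference of 0.75 ± 0.13 (adjusted p = 0.0249). All 4 alpha-class members had fitted differences above 0, from 0.17 to 1.29, and none passed.

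**Figure D5:**
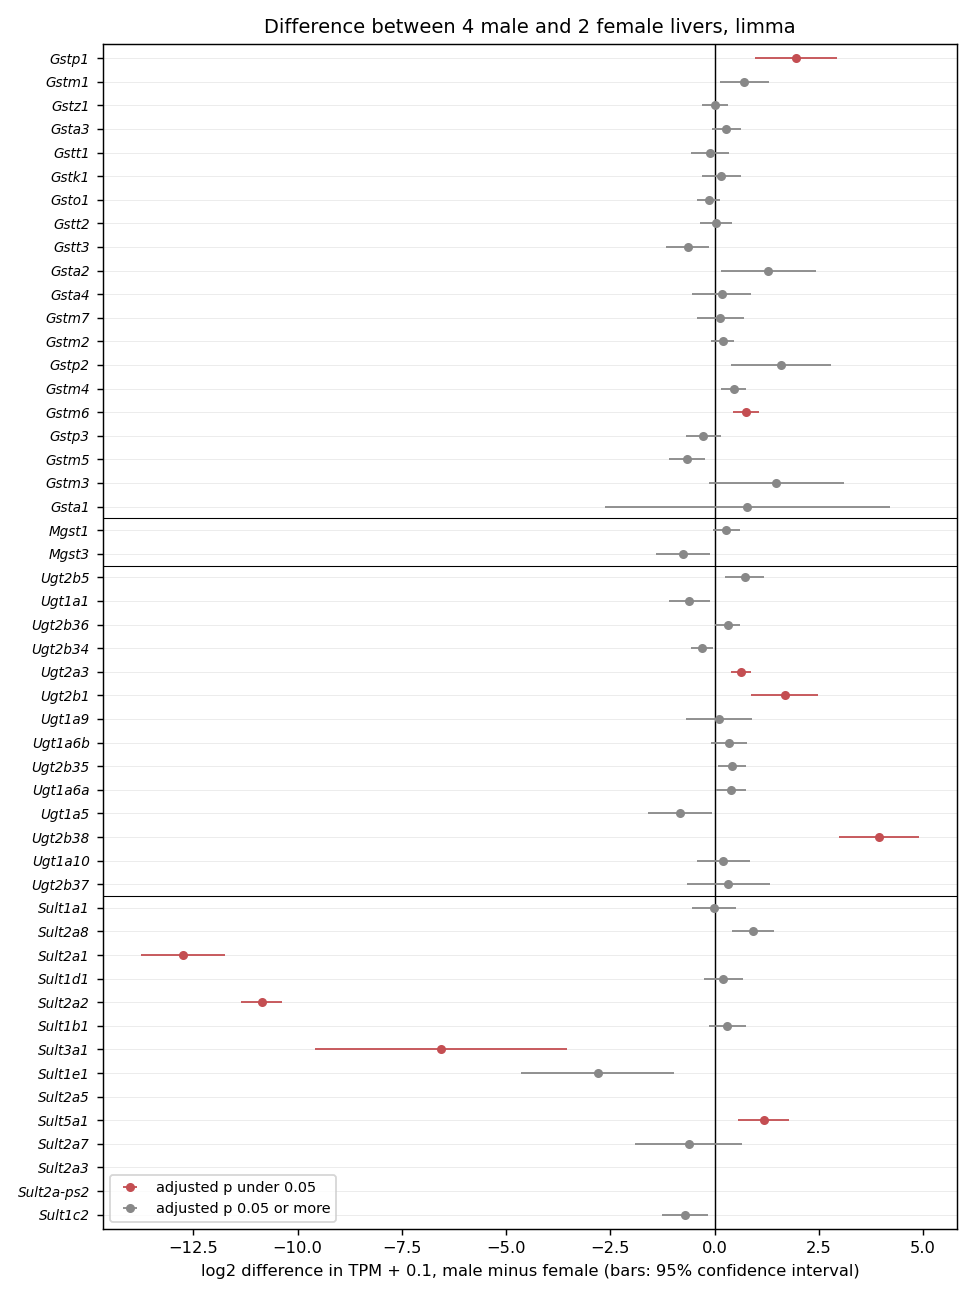
Log2 difference in TPM + 0.1, male minus female, for the members, with the 95% confidence interval, in the same order of rows as the plot of levels. Members past an adjusted p of 0.05 are red, and *Sult2a3*, *Sult2a5* and *Sult2a-ps2*, listed at 0 in all males, have no point.

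With 2 females, these results depend on each of them. When either female was left out, the remaining one being assumed to vary as the males do, 5 members passed, namely *Sult2a1*, *Sult2a2*, *Sult2a3*, *Sult2a5* and *Sult2a-ps2*, and 18 genes passed in all without Alb-Cre- replicate 2 and 19 without Alb-Cre+ replicate 2. All 5 had reached the minimum of 1 TPM through the females alone, so that their passing is no support for a sex difference, and none of the 5 genes that passed with all mice and reached the minimum in both sexes passed here. The other 7 had adjusted p between 0.112 and 0.357 without one of the females. Without single males, *Gstm6* and *Sult5a1* also missed the threshold whichever was left out, as did *Ugt2a3* without replicate 1 of either genotype, *Ugt2b1* without either Alb-Cre- male, *Gstp1* without either Alb-Cre+ male, and *Sult3a1* without Alb-Cre- replicate 3 or either Alb-Cre+ male. The largest adjusted p in these cases was 0.108. *Ugt2b38* passed whichever male was left out. It had reached the minimum of 1 TPM through the males alone, so its passing is no support for a sex difference either.

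Cell type markers moved with sex in the same libraries. Of 8 Kupffer cell markers, 7 were higher in the females at an adjusted p of 0.05 and their summed level was 580 to 633 TPM in the females against 168 to 250 TPM in the males. For 8 neutrophil markers these values were 5, 149 to 306 TPM and 23.9 to 54.8 TPM. No marker of the 8 listed for lymphocytes, for sinusoidal endothelium and for stellate cells passed, with medians of -0.89, -0.56 and -0.66 (log2, male minus female), nor did a pericentral hepatocyte marker (median -0.40) or a cholangiocyte marker (median -0.23). Of 7 hepatocyte markers 1 passed (*Serpina1c*, higher in males), of 10 periportal markers 2 (*Cyp2f2* and *Pck1*, higher in males) and of 6 erythroid markers 1 (*Alas2*, higher in males). Of the 8 acinar pancreas markers, 4 were listed at 0 in every mouse. The part of these differences in the sex differences of the conjugation enzymes was not tested. Between genotypes no marker of any of these lists passed the adjusted threshold, and the hepatocyte marker sum was 77860 to 86450 TPM in the controls against 59600 to 81120 TPM in the Alb-Cre+ mice, where *Apoa1*, the only gene of that list with an unadjusted p under 0.05, was lower by 0.91 on the log2 scale (adjusted p = 0.9999 by limma).

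The sex labels held in the reads. *Ddx3y*, *Eif2s3y*, *Kdm5d* and *Uty*, all Y-linked, summed to 55.1 to 64.6 TPM in the males and to 0.0908 and 0.101 TPM in the females. *Xist*, also listed for this check, had no entry in the data. Of 14 liver genes known to differ by sex, 5 were higher in males and 3 in females at an adjusted p of 0.05. The 3 with the smallest p were *Cyp4a12a* (log2 difference 7.42), *Mup20* (5.18) and *Cyp7b1* (2.60). The rest did not pass, with differences from -6.49 for *Cyp2b9* to 0.08 for *Bcl6*. The median of the list, which mixes genes of both directions, was -0.50.

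The genes around the conjugation reactions were described in the same way. None of the genes in any of the following lists passed for genotype. Of 17 genes of cofactor supply, which make UDP-glucuronic acid, PAPS, glutathione and S-adenosylmethionine, the median genotype difference was -0.02, and by sex 1 passed, *Slc35d1*, the transporter that carries UDP-glucuronic acid into the endoplasmic reticulum, which was higher in females (-0.62 ± 0.12 male minus female, adjusted p = 0.0335 by limma). Of 25 other conjugating and related enzymes, with a median genotype difference of 0.01, 2 were higher in males: *Keg1*, a glycine N-acyltransferase-like gene, at 23.9 to 37.5 TPM in males and 1.73 and 5.57 TPM in females, and *Acsm1*, an acyl-CoA synthetase, with a log2 difference of 0.96. Of 13 genes of conjugate uptake and efflux (median genotype difference 0.15), *Slco1a1*, an organic anion transporter of the sinusoidal membrane, was higher in males, at 30.2 to 83.6 TPM against 0.386 and 1.00 TPM in the females. Of 8 genes that remove conjugates (median genotype difference 0.22), none passed by sex. Of 17 regulators of the xenobiotic response (median genotype difference 0.08), *Nfe2l2* and *Arnt* were higher in females, with log2 differences of -0.96 and -1.05. *Nfe2l2* encodes NRF2, the factor that acts on the antioxidant response element, and *Arnt* the partner of the aryl hydrocarbon receptor. Of 16 NRF2 response genes outside the families (median genotype difference 0.02), *Srxn1* and *Hmox1* were higher in females, with log2 differences of -0.997 and -1.37. The medians of these lists by sex, male minus female, were -0.03 for cofactor supply, 0.20 for other conjugating enzymes, -0.07 for conjugate uptake and efflux, 0.02 for conjugate removal, -0.47 for the regulators and -0.40 for the NRF2 response genes, beside -0.26 over all tested genes.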

How the data were processed

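Liver RNA of 6 mice (3 per genotype) was analysed. The authors deposited TPM for 116748 transcripts in each mouse, labelled as output of salmon on GRCm38, whereas the methods describe STAR and RSEM. TPM adds up to the same total in each mouse and keeps no read numbers, so the depth is unknown, no counting interval is given, and a rise of some genes lowers the others. The 163 transcripts without a gene symbol were left out, and TPM was summed per symbol. A second deposited table holds the authors' own fold changes and p-values and was not used here. The study's count test could not be run on TPM.

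The 14189 genes whose mean reached 0.1 TPM were fitted on log2(TPM + 0.1) with limma 3.58.1 (trended variances, R 4.3.3), with Benjamini-Hochberg adjustment over all of them and a threshold of 0.05, an adjusted p of 0.01 being an alternative. The fit was tested on simulated data. Nothing states that the mice were housed or processed separately, so p-values measure the spread between these mice. Deviations from the group means correlated across genes by 0.367, 0.588 and 0.37 between same-numbered mice. Between differently numbered males the values were 0.171 and 0.0914. Replicate 2 is the female of each genotype, so its value cannot be told apart from sex. The group means include the female, so sex enters the deviations of the males too. No label states a pairing, and these values do not establish one.

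The members and gene lists were chosen with earlier results of these data known. Named were the 8 members with the highest mean, the 5 with the smallest genotype p in each direction, up to 8 per direction past the threshold for sex, the members nearest 1 TPM, and at most 3 genes past the threshold per list. Some members, such as *Gstp2* and *Ugt2b34*, were named outside these rules. Motifs were chosen after the values were seen. Alternatives were a replicate block, a term for sex, the pseudocount, filter, scaling, variance trend, males alone and each mouse left out.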

Additional observations from a re-analysis of the deposited data

Results flagged for a closer look

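Over the 4 males, 2 of the 26 named members had 1 mouse far from the other 3 (Dixon's test at 95%, which flags about 1 group in 20 by chance). *Sult1a1* stood at 347 TPM in Alb-Cre+ replicate 3, below 483 to 510 TPM in the other males. *Sult1e1* stood at 12.0 TPM in Alb-Cre- replicate 1, above 1.14 to 2.84 TPM in the other males.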

How the results depend on the processing

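No member passed for genotype under any of the alternatives, including the replicate block, males alone and each mouse left out, nor for the difference between the sexes under any of its 4. Over all tested genes, the genotype comparison gave 0 to 2 calls with a mouse left out. The replicate block changed no call. The median member difference by genotype ranged from -0.107 to 0.0529 with a mouse left out. The number of members without overlap between genotypes was 1 after scaling by median of ratios, 2% beside 5.67% of all tested genes, and 2 to 6 with a mouse left out, 4% to 12% beside 9.58% to 20.3%. Of the 140 values for the 10 members named for genotype, 1 turned its direction: *Sult2a7* was 0.236 without Alb-Cre+ replicate 3, its range with a mouse left out being -0.921 to 0.236.

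For sex, 12 members passed, against 7 with no filter on low values, 6 with limma without the trend, 6 at an adjusted p of 0.01 and 5 to 9 with a mouse left out. Over all genes, 1019 passed, against 1552 with no genotype term, 362 with no filter, 73 at an adjusted p of 0.01 and 18 to 595 with a mouse left out. No direction turned among the 144 values for the 12 members named for sex, and 42 of them lost the call. The cause of these changes was not tested beyond the smaller number of samples or larger number of genes that some alternatives have by construction.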
